A study of Mus musculus with 18 samples.

Results

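Bmi1 and 9 genes that lie around it on mouse chromosome 2 were followed across all 6 groups of the study. The genes are Nebl, Skida1, Mllt10, Dnajc1, Commd3, Pip4k2a, Armc3, Msrb2 and Otud1. They were taken by name, as the mouse counterpart of the human band 10p12, a region raised in NUTM1-rearranged leukemia, and make up 10 of the 32285 genes in the table. All 10 had enough counts to be tested in every comparison. On day 6, cells with the BRD9-NUTM1 fusion had less Nebl and Skida1 and more Mllt10 and Dnajc1 than control cells, while Bmi1 itself passed the test between the 2 fusions and not against control. On day 6, 17.4% of all tested genes were called between BRD9-NUTM1 and control cells, and 11.2% between the 2 fusions. Only the Nebl calls of that day held without any 1 library, and those of Skida1, Mllt10, Dnajc1 and Bmi1 did not. On day 14 no gene of the region passed without pairing libraries by their number, where at most 0.0429% of all tested genes were called. With pairing, Nebl and Otud1 passed between BRD9-NUTM1 and control cells, where 11.6% of all genes were called. Both of these calls were lost whichever number was left out.

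RNA was measured in iLS cells, a name the labels do not spell out, which were CD45.2-positive cells sorted from the bone marrow of C57BL/6 mice. They carried the fusion BRD9-NUTM1 (called BN1), the fusion AFF1-NUTM1 (called AFFN1) or neither (control), and were taken on day 6 or day 14, which makes 6 groups of 3 libraries. BRD9 is a subunit of a chromatin remodelling complex, AFF1 is a scaffold of an elongation complex, and NUTM1 is a testis protein that recruits histone acetyltransferases. All groups shared the strain, the CD45.2 marker and the sort, and the day 6 controls are called mock in their descriptions. The labels do not say how the fusions were introduced, nor whether replicates came from separate animals or cultures, so the p-values measure only the spread between these libraries, which may be technical. The descriptions name libraries by another scheme on each day, so day and experiment cannot be told apart.

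Library totals were 14.2 to 17.7 (in 1e6 counts) on day 6 and 17.8 to 18.4 on day 14. Levels are given as CPM, counts per 1e6 counts after TMM scaling over the 18 libraries. Where groups are said not to overlap, this is a description, and the share of all genes without overlap was not computed. All 10 markers of B-lineage progenitors were detected in every library, at a summed level of 5692 to 13135 CPM, and Ptprc, which encodes CD45, was at 185 to 407 CPM. Cd3e, Cd8a, Mpo and Elane, which define T cells and myeloid granules, had 0 or 1 read in any library, whereas Lck of the T cell list was at 59.9 to 204 CPM. Of the myeloid list, Lyz2 was at 14.5 to 133 CPM and Itgam at 1.81 to 18.2 CPM in every library, and Csf1r had 0 to 130 reads. In bulk samples, fewer cells that express a gene and less of its RNA per cell cannot be told apart.

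Bmi1 encodes a ring finger subunit of Polycomb repressive complex 1 (PRC1), which ubiquitinates a core histone and keeps its target genes silent. It is known for sustaining the self-renewal of hematopoietic stem cells, for holding down the Cdkn2a locus, and as a partner of Myc in B-cell lymphoma. Mllt10 encodes a partner of the histone methyltransferase DOT1L and is itself a fusion gene in leukemia. The other neighbours have unrelated functions, and what they share with Bmi1 is the place on the chromosome.

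The region spans 17343909 to 19660583 of chromosome 2 in the mm10 build, with gene models of GENCODE M21. Nebl (ENSMUSG00000053702; 17343909 to 17731464, reverse strand) is the outermost gene on one side and Otud1 (ENSMUSG00000043415; 19657752 to 19660583, forward strand) on the other. Skida1 (ENSMUSG00000054074; 18040676 to 18049051, reverse) and Mllt10 (ENSMUSG00000026743; 18055237 to 18212388, forward) are 6185 bases apart. Mllt10 overlaps Dnajc1 (ENSMUSG00000026740; 18195654 to 18392830, reverse) over 16735 bases, of which 749 are exonic in both genes. The genes are on opposite strands, the library kit keeps strand, and the strand setting of the counting is not given in the sources used here, so the split of reads between Mllt10 and Dnajc1 in that overlap is uncertain. Commd3 (ENSMUSG00000051154; 18672384 to 18676231, forward) ends 786 bases before Bmi1 starts (ENSMUSG00000026739; 18677018 to 18686629, forward). Pip4k2a (ENSMUSG00000026737; 18842255 to 18998126, reverse), Armc3 (ENSMUSG00000037683; 19199302 to 19310241, forward) and Msrb2 (ENSMUSG00000023094; 19371440 to 19394976, forward) lie between Bmi1 and Otud1. The map of the region shows these positions with the effect of each fusion.

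**Figure D1:**
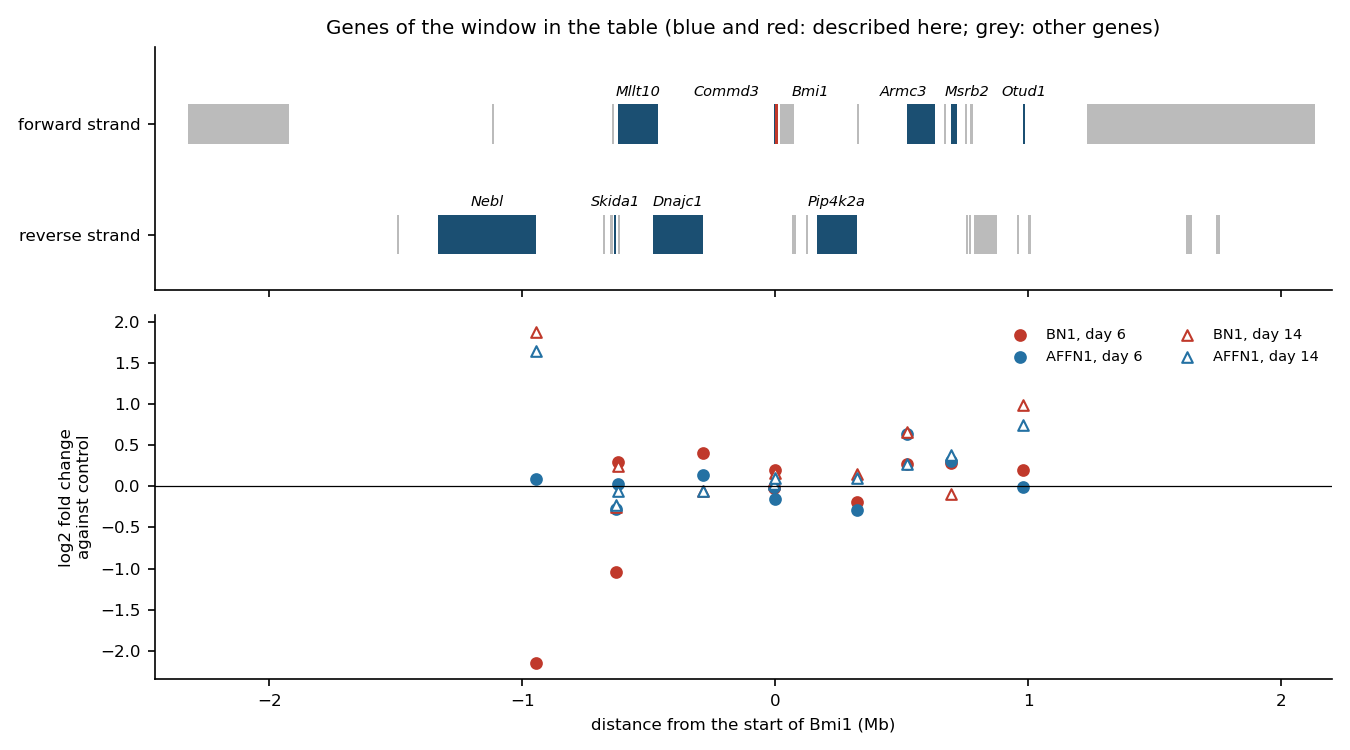
Upper panel: the genes of the region that are in the table, by strand, with distance from the start of Bmi1 in Mb on the x axis (red, Bmi1; blue, its 9 neighbours described here; grey, other genes). Lower panel: the log2 fold change of BN1 (red) and AFFN1 (blue) against control on day 6 (filled circles) and day 14 (open triangles), placed at each gene's start. Nebl has the lowest value, -2.14 for BN1 on day 6, and the highest, 1.88 for BN1 on day 14, while Commd3 and Bmi1 stay between -0.16 and 0.20.

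The start regions of Bmi1, Dnajc1 and Otud1 are shown because the same motif, an E-box, lies upstream of all 3, and of Commd3, the gene next to Bmi1. Each sequence is the 250 bases before the start annotated in RefSeq (GRCm38.p6), which listed 9 of the 10 genes, read 5′ to 3′ on the strand of the gene. Capitals mark matches, on either strand, of the motifs searched: CACGTG (an E-box), GGGCGG (a GC box), CCAAT and TATAAA. The windows are chr2:18676768-18677017 for Bmi1, chr2:18392831-18393080 for Dnajc1 and chr2:19657481-19657730 for Otud1.
Bmi1: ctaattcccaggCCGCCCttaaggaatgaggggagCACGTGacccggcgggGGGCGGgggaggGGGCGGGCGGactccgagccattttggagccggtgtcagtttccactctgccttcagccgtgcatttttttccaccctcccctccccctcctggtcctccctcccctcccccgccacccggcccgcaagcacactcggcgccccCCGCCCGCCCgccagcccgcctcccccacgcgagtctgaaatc
Dnajc1: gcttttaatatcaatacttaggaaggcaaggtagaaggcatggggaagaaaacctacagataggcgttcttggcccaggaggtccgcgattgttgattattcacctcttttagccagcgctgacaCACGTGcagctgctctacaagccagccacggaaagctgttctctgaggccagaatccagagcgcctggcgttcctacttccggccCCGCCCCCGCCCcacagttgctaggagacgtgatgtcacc
Otud1: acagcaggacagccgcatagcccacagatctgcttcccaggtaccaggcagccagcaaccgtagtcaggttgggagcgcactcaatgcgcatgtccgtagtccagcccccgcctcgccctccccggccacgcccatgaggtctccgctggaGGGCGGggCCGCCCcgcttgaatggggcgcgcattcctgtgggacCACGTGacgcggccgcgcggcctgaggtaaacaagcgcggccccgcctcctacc

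The windows of Bmi1, Dnajc1, Otud1 and Commd3 each held 1 E-box, which 6.02% of the 32851 RefSeq windows of this length hold. The listed windows of Nebl, Mllt10, Pip4k2a, Armc3 and Msrb2 held none. These 4 genes were picked for the motif, so the share is no test of them, and windows of like CG content were not compared. Overlapping matches counted, Bmi1 had 6 GC boxes, Commd3 had 4, and Dnajc1 and Otud1 had 2 each, and at least 1 is present in 32.7% of windows. Bmi1 had 21 CG pairs, Commd3 45, Dnajc1 12 and Otud1 24, against a median of 6 over all windows (quartiles 2 and 16). Pip4k2a, without an E-box, held 7 GC boxes and 45 CG pairs. Nebl has 4 starts in RefSeq, of which the outermost had 25 CG pairs and none of the 4 motifs. The innermost start of Nebl had 0 CG pairs, a GC content of 36.8% and 1 CCAAT, a motif found in 33.8% of windows. The deposited counts are per gene, so they do not tell which start of Nebl was used. TATAAA, present in 12.4% of windows, was in none of the listed windows of these genes. A match says only that the letters are there.

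Per kb of exon, Commd3 was the highest of the 10 genes, with a median of 29.5 CPM per kb over the 18 libraries, and its lowest library (26.6) was above the highest library of every other gene (26.2, of Pip4k2a). Pip4k2a, Bmi1 and Mllt10 followed at medians of 20.4, 19.7 and 17.5 CPM per kb, and their ranges overlapped. Msrb2 (5.52), Otud1 (5.19) and Dnajc1 (2.42) were next and overlapped with each other, and the highest library of Otud1 (16.9) was above the lowest of Bmi1 (11.4) and Mllt10 (14.1). Armc3, Skida1 and Nebl were lowest, at 0.522, 0.459 and 0.0969 CPM per kb, again with overlapping ranges. Exons of all annotated transcripts were joined for these lengths, 11651 bases for Dnajc1 and 15235 for Nebl, and the order depends on that. By median CPM, Mllt10 (104) was the highest, and Dnajc1 (28.2) was above Otud1 (14.7) and Msrb2 (7.60). Commd3 was the steadiest gene, with 1.36 times between its lowest and highest library, against 2.19 times for Bmi1, 6.25 times for Otud1 and 15.6 times for Nebl.

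**Figure D2:**
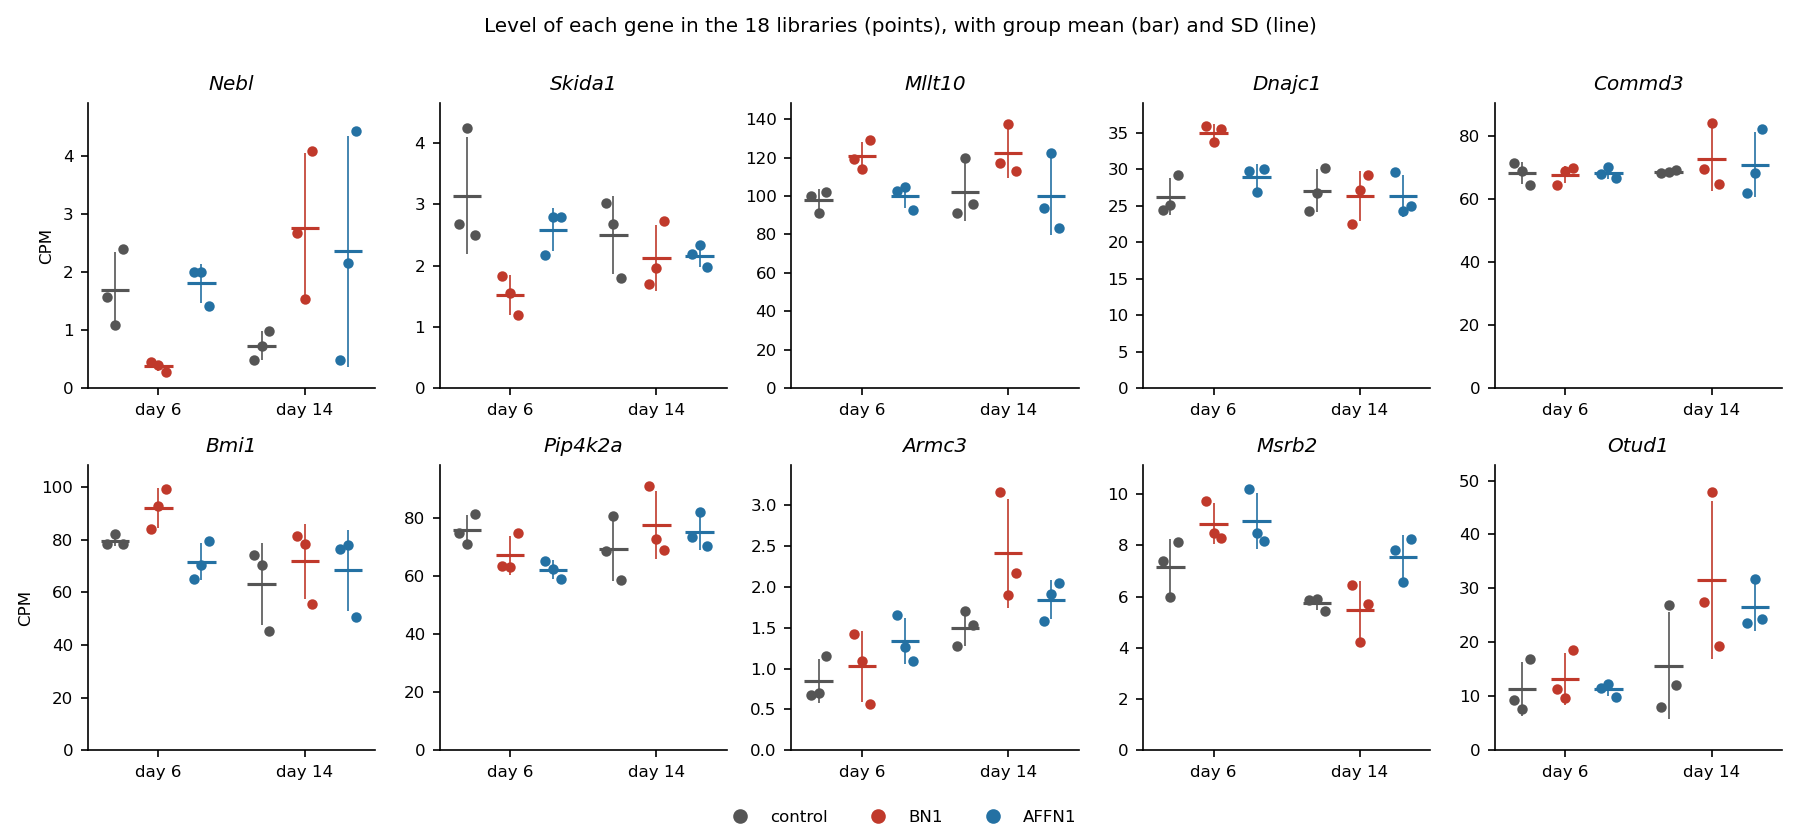
CPM of each gene (y axes from 0) in the 18 libraries, by day, for control (grey), BN1 (red) and AFFN1 (blue). Points are libraries, horizontal bars are group means and vertical lines are SDs (n = 3). The 3 BN1 libraries of day 6 have the lowest values of Nebl and Skida1 on that day and the highest of Dnajc1 and Mllt10, and Bmi1 has 1 low library in each group of day 14.

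BN1 and control cells were first compared on day 6. Of the 10 genes, 4 were called at an adjusted p under 0.05 (2 higher, 2 lower), where 17.4% of all 12068 tested genes were called, and the median log2 fold change was 0.20 against -0.02 over all genes tested. Nebl encodes nebulette, an actin-binding protein of the heart muscle Z-disc with a shorter LIM-domain form in other cells. Control libraries 1 to 3 had 28, 17 and 48 reads of it (1.57, 1.09 and 2.40 CPM), and BN1 libraries had 9, 7 and 5 reads (0.459, 0.402 and 0.284 CPM). All BN1 libraries were below all controls, and the levels were low in both groups. Nebl fell 4.42-fold (log2 fold change -2.14, SE 0.39, 95% interval -3.02 to -1.27, adjusted p = 0.00442 by edgeR's quasi-likelihood test). Without any 1 of the 6 libraries the adjusted p stayed between 0.0035 and 0.0197. Without control 3 the log2 fold change was -1.78.

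Summed levels of 7 stromal markers moved in part with Nebl on day 6, at 18.9, 12.7 and 76.3 CPM in BN1 1 to 3, 55.1, 26.4 and 88.6 CPM in control, and 35.8, 138 and 43.7 CPM in AFFN1. BN1 3 had the fewest reads of Nebl with a stromal sum inside the range of the controls, and the part of stromal RNA in the difference was not tested. The T cell list, nearly all of it Lck, was at 80.9 to 102 CPM in BN1 and 60.0 to 64.6 CPM in control, and the erythroid list at 3.29 to 4.48 against 1.30 to 1.80 CPM. Their part in the day 6 differences of the region was not tested.

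Skida1, which encodes a nuclear protein with a domain shared by SKI and DACH, was at 2.69, 4.24 and 2.50 CPM in control and 1.84, 1.55 and 1.19 CPM in BN1. The groups did not overlap. It fell 2.06-fold (log2 fold change -1.04, SE 0.29, edgeR adjusted p = 0.0323). This call was lost without control 1 (adjusted p = 0.0569), control 2 (0.124), BN1 1 (0.0537), BN1 2 (0.0726) or BN1 3 (0.0893), and in a fit of these 2 groups alone (0.0727).

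Mllt10 was at 100, 91.2 and 102 CPM in control and 119, 114 and 129 CPM in BN1, again without overlap. It rose 1.22-fold (log2 fold change 0.29, SE 0.08, edgeR adjusted p = 0.0343). The call was lost without control 1 (0.0792), control 2 (0.0946), BN1 1 (0.0901) or BN1 3 (0.103), in a fit of the 2 groups alone (0.0602) and in a fit of all 18 libraries (0.197).

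Dnajc1 encodes a J-domain protein of the endoplasmic reticulum membrane that binds the chaperone BiP. Its control libraries had 24.5, 25.1 and 29.2 CPM and its BN1 libraries 35.9, 33.7 and 35.5 CPM. The lowest BN1 library was above the highest control. Dnajc1 rose 1.32-fold (log2 fold change 0.40, SE 0.09, edgeR adjusted p = 0.0158), a call lost without control 1 (0.0695), control 2 (0.0528) or BN1 1 (0.0608). Mllt10 and Dnajc1 are the 2 genes whose exons overlap on opposite strands, and reads of the overlap cannot be assigned here.

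Bmi1 was at 78.4, 82.1 and 78.4 CPM in control and 84.2, 92.8 and 99.2 CPM in BN1 on day 6. Every BN1 library was above every control, but the difference did not pass the test (1.15-fold, log2 fold change 0.20, SE 0.09, 95% interval -0.005 to 0.40, edgeR adjusted p = 0.162). Its neighbour Commd3, a subunit of the Commander complex that recycles endosomal cargo, had 71.6, 68.8 and 64.5 CPM in control and 64.7, 68.8 and 69.8 CPM in BN1. These ranges overlapped almost fully (log2 fold change -0.02, 95% interval -0.19 to 0.14, adjusted p = 0.848). Pip4k2a, a kinase of phosphatidylinositol phosphates on the other side of Bmi1, had a log2 fold change of -0.19 (adjusted p = 0.183). Msrb2 encodes a mitochondrial methionine sulfoxide reductase and was at 7.39, 5.97 and 8.11 CPM in control, 9.74, 8.49 and 8.28 CPM in BN1 and 10.2, 8.47 and 8.15 CPM in AFFN1. Both fusions lay above all controls, and neither difference passed (log2 fold changes 0.29 and 0.31, adjusted p = 0.239 and 0.233). Armc3, an armadillo repeat protein known from sperm, had a log2 fold change of 0.27 in BN1 (0.684), and Otud1, a deubiquitinase, of 0.20 (0.688).

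No gene of the region was called between AFFN1 and control on day 6, where 12.7% of all tested genes were, by edgeR. At an unadjusted p under 0.05 there was 1 of the 10, against 3414 of all 12068 tested genes. It was Pip4k2a, which DESeq2 called (adjusted p = 0.0442). Pip4k2a was at 75.0, 71.2 and 81.5 CPM in control and 65.5, 62.4 and 59.2 CPM in AFFN1. The groups did not overlap (log2 fold change -0.29, SE 0.09, edgeR adjusted p = 0.0654). Bmi1 had 65.2, 70.6 and 79.4 CPM in AFFN1, with 1 library inside the control range (log2 fold change -0.16, SE 0.09, adjusted p = 0.290). Nebl had 34, 38 and 26 reads (2.00, 2.00 and 1.42 CPM) in AFFN1, within the control range (log2 fold change 0.08, adjusted p = 0.893). Otud1 was at 9.35, 7.65 and 17.0 CPM in control and 11.6, 12.4 and 9.96 CPM in AFFN1 (log2 fold change -0.01, adjusted p = 0.981). Without the 3 libraries numbered 3 its log2 fold change was 0.49 (adjusted p = 0.0419).

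The 2 fusions were compared with each other on day 6 from the same AFFN1 and BN1 libraries. Of the 10 genes, 2 were called, Bmi1 higher and Nebl lower in BN1, where 11.2% of all tested genes were called. All 3 BN1 libraries had more Bmi1 (84.2 to 99.2 CPM) than all 3 AFFN1 libraries (65.2 to 79.4 CPM). The group means were 92.1 ± 7.52 and 71.7 ± 7.17 CPM (SD, n = 3), a 1.28-fold difference (log2 fold change 0.35, SE 0.09, 95% interval 0.15 to 0.55, edgeR adjusted p = 0.0324). The call was lost without BN1 2 (adjusted p = 0.0896), BN1 3 (0.115), AFFN1 1 (0.128) or AFFN1 2 (0.122), and in the fit of all 18 libraries (0.360). Nebl was 4.68-fold lower in BN1 (log2 fold change -2.23, SE 0.39, adjusted p = 0.00466) and remained called without any 1 of the 6 libraries, but not in the fit of all 18 (0.0546). Mllt10, Dnajc1 and Skida1 had the same sign as against control without passing (log2 fold changes 0.26, 0.27 and -0.76, adjusted p = 0.0653, 0.0958 and 0.126). DESeq2 called Mllt10 (0.0262).

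**Figure D3:**
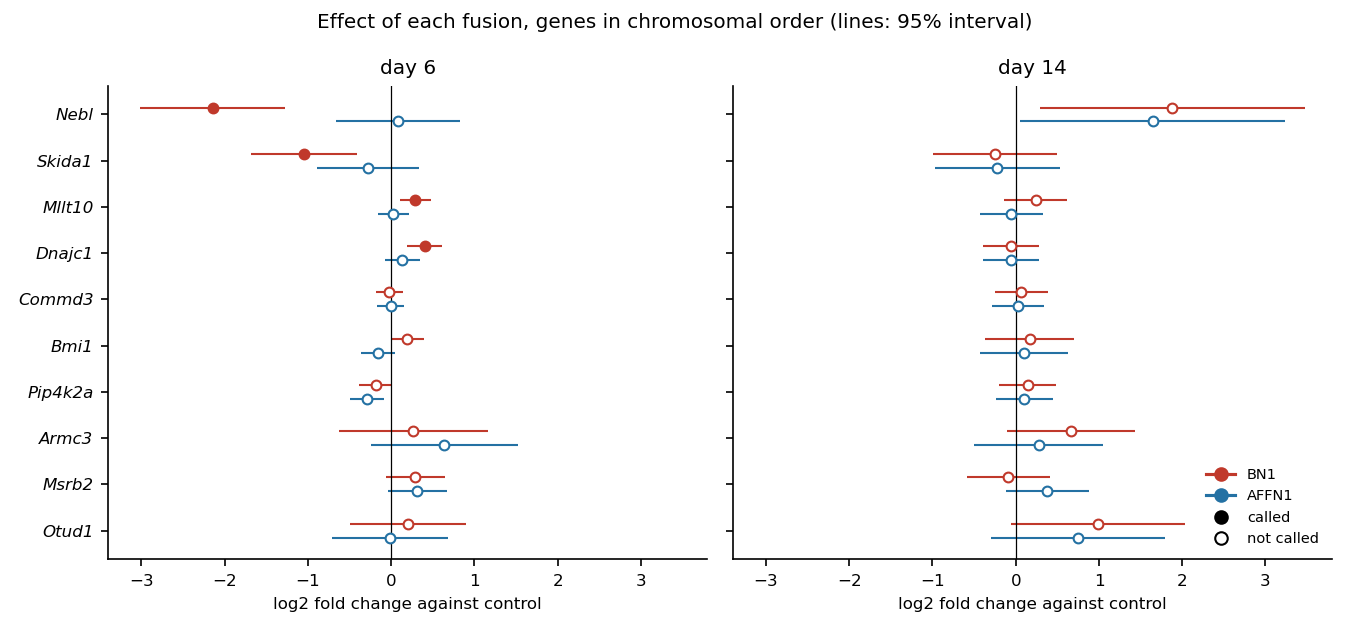
Log2 fold change of BN1 (red) and AFFN1 (blue) against control for the 10 genes in chromosomal order, on day 6 (left) and day 14 (right), with 95% intervals of edgeR's quasi-likelihood fit without pairing. Filled points were called at an adjusted p under 0.05. Only Nebl, Skida1, Mllt10 and Dnajc1 of BN1 on day 6 are filled, and the intervals of day 14 are wider for Nebl and Otud1 than for the others.

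On day 14 the libraries carried a pairing that day 6 did not. The descriptions give libraries of 1 number a shared code in all 3 groups, and their deviations from the group means correlated at 0.306 to 0.685 within a number. Bmi1 followed this pattern. It was at 74.2, 70.3 and 45.3 CPM in control 1 to 3, at 81.4, 78.5 and 55.5 CPM in BN1 and at 76.3, 78.2 and 50.8 CPM in AFFN1. The library numbered 3 was the lowest of each group, and the groups overlapped.

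Without pairing, none of the 10 genes was called between BN1 and control on day 14, where 0.0257% of 11657 tested genes were called (3 by edgeR, with 2351 at an unadjusted p under 0.05, and 642 by DESeq2, which called none of the 10). With the replicate number as a block, 11.6% of all genes and 2 of the 10 were called, Nebl and Otud1, both higher in BN1. Bmi1 was 1.10, 1.12 and 1.22 times its paired control in the 3 pairs. That is the same direction each time, and the difference did not pass (blocked log2 fold change 0.18, SE 0.10, adjusted p = 0.266, and 0.17, SE 0.24, adjusted p = 0.723 without the block). Mllt10 was 1.28, 1.14 and 1.18 times its paired control (blocked log2 fold change 0.25, adjusted p = 0.154).

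**Figure D4:**
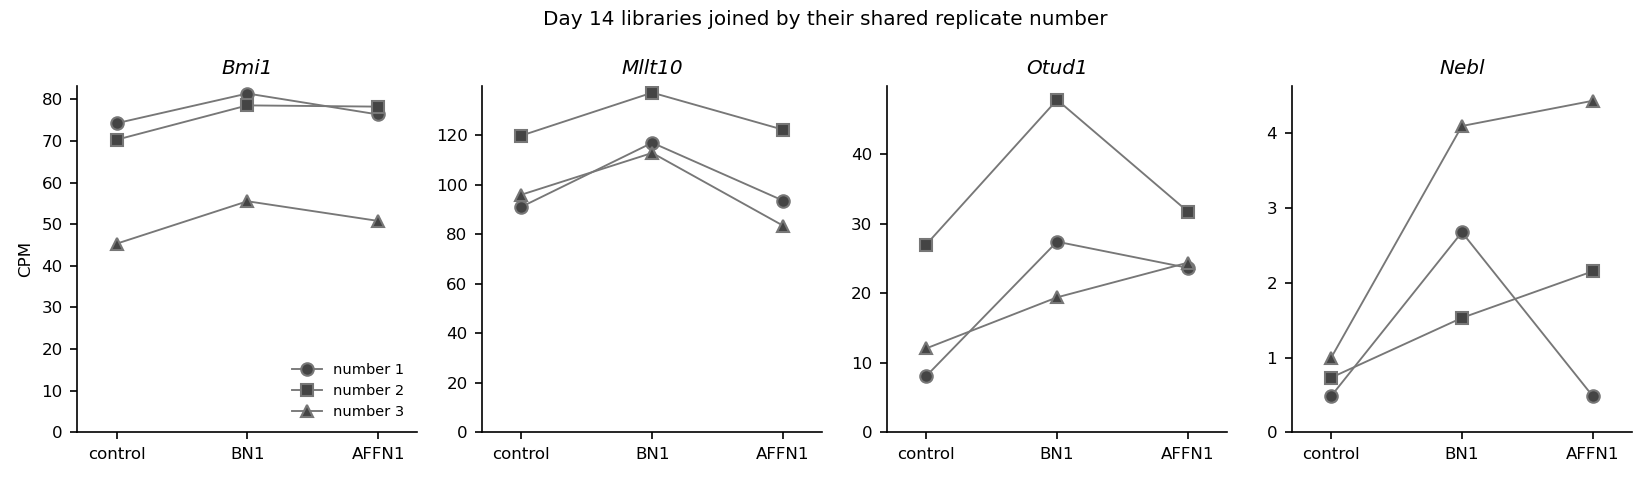
CPM (y axes from 0) of Bmi1, Mllt10, Otud1 and Nebl on day 14, with lines joining the control, BN1 and AFFN1 libraries that share a number (circle, square and triangle for numbers 1, 2 and 3). Each line rises from control to BN1 in all 4 genes, and the triangle is the lowest line of Bmi1 and the highest of Nebl.

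Nebl had 8, 12 and 15 reads in the day 14 controls (0.484, 0.731 and 0.995 CPM), and 44, 25 and 66 reads in BN1 (2.67, 1.53 and 4.09 CPM). Every BN1 library was above every control, by 5.53, 2.09 and 4.11 times within pairs. The blocked log2 fold change was 1.91 (SE 0.55, edgeR adjusted p = 0.0490), and without the block it was 1.88 (SE 0.71, adjusted p = 0.186). In AFFN1, Nebl had 8, 35 and 65 reads (0.485, 2.15 and 4.43 CPM), or 1.00, 2.94 and 4.45 times the paired control. AFFN1 1 equalled its control and the other pairs were higher (blocked log2 fold change 1.46, adjusted p = 0.329).

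Otud1 was at 8.10, 27.0 and 12.1 CPM in the day 14 controls, at 27.4, 47.8 and 19.4 CPM in BN1 and at 23.6, 31.7 and 24.4 CPM in AFFN1. The groups overlapped through control 2, but each fusion library was above its paired control, by 3.38, 1.77 and 1.61 times in BN1 and 2.92, 1.18 and 2.02 times in AFFN1. In BN1 the blocked log2 fold change was 1.04 (SE 0.25, adjusted p = 0.0321), against 0.99 (SE 0.46, adjusted p = 0.271) without the block. In AFFN1 it was 0.89 with the block (adjusted p = 0.202). Of the other genes on day 14, Armc3 was at 1.27, 1.71 and 1.53 CPM in control and 3.16, 1.90 and 2.17 CPM in BN1. These groups did not overlap, and the difference did not pass (log2 fold change 0.66, adjusted p = 0.310). Skida1 and Dnajc1, which had passed on day 6, had log2 fold changes of -0.25 and -0.06 in BN1 (adjusted p = 0.709 and 0.855), and their groups overlapped. The blocked BN1 calls of Nebl and Otud1 were both lost when the libraries numbered 1 (adjusted p = 0.0574 and 0.0515), 2 (0.109 and 0.0706) or 3 (0.176 and 0.0929) were left out, a check added after seeing the data.

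Otud1 was also set beside the summed level of 10 immediate early and stress genes, none of which was called between groups of day 6. On day 6 that sum was 744 CPM in control 3 and 1735 CPM in BN1 3, the libraries with the most Otud1 in their groups (17.0 and 18.7 CPM), and 295 to 389 CPM in the other 7. On day 14 it was 226 to 290 CPM in control, 349 to 401 CPM in BN1 and 219 to 386 CPM in AFFN1, so BN1 and control did not overlap. Within the day 14 groups the order was not that of Otud1, since control 2 and BN1 2 had the most Otud1 and the lowest sums of their groups (226 and 349 CPM). The B-lineage list (9897 to 11846 CPM in BN1, 6412 to 9392 CPM in control) the myeloid list (39.2 to 67.9 against 16.6 to 36.6 CPM) and the T cell list (122 to 128 against 148 to 179 CPM, lower in BN1) also did not overlap between BN1 and control on day 14. The part of these genes and cells in the differences of Otud1 and Nebl was not tested. The stromal list overlapped on day 14, at 20.7 to 42.1 CPM in BN1 and 24.0 to 43.3 CPM in control.

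None of the 10 genes was called between AFFN1 and control on day 14, with or without the block, where 0.558% and 0.0429% of all genes were called by edgeR. At an unadjusted p under 0.05 there were 2 of the 10 with the block and 1 without, against 1422 and 721 of all 11657 tested genes, and DESeq2 called none of the 10. Bmi1 had a log2 fold change of 0.10 (SE 0.24, adjusted p = 0.971), and its AFFN1 libraries were 1.03, 1.11 and 1.12 times their paired controls. Between BN1 and AFFN1 on day 14 no gene of the region was called, where 0% of all genes were called without the block (992 at an unadjusted p under 0.05, 90 by DESeq2) and 0.18% with it. Of the 10 genes, 0 had an unadjusted p under 0.05 without the block and 2 with it, where 1930 of all 11657 tested genes had, and DESeq2 called none of the 10. Bmi1 had a log2 fold change of 0.07 (95% interval -0.46 to 0.60, adjusted p = 0.941) without the block and 0.07 with it (95% interval -0.15 to 0.30, adjusted p = 0.729), and the day 6 difference of 0.35 lies within the first interval and above the second. Msrb2 was at 6.44, 4.22 and 5.71 CPM in BN1 and at 7.82, 6.58 and 8.25 CPM in AFFN1. These groups did not overlap, and the difference did not pass (log2 fold change -0.47, SE 0.22, adjusted p = 0.577).

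Whether a fusion's effect differed between the days was tested in a fit of all 18 libraries. For BN1, 1 of the 10 genes was called, where 2.97% of 12567 tested genes were called. Nebl was lower than control in BN1 on day 6 and higher on day 14, and its effect differed by 4.03 on the log2 scale (SE 0.87, 95% interval 2.19 to 5.87, edgeR adjusted p = 0.0144). The call held without any 1 of the 12 control and BN1 libraries (adjusted p between 0.0117 and 0.0452) and was lost without the 3 day 6 libraries numbered 3 (difference 3.52, adjusted p = 0.150). Bmi1 had a difference of -0.03 (SE 0.27, adjusted p = 0.987), and Dnajc1, called on day 6 alone, a difference of -0.46 (adjusted p = 0.238). For AFFN1 none of the 10 was called, where 1.46% of all genes were. Of the 10, 1 (Pip4k2a) had an unadjusted p under 0.05 by edgeR, against 1220 of all 12567 tested genes. The difference was 1.57 for Nebl (adjusted p = 0.580), 0.26 for Bmi1 (0.883) and 0.40 for Pip4k2a (0.479). DESeq2 called none of the 10 in this comparison.

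In control cells 43.9% of all tested genes were called between the days and none of the 10 genes was, by edgeR or by DESeq2. Of the 10, 1 (Armc3) had an unadjusted p under 0.05 by edgeR, against 6532 of all 12567 tested genes. Armc3 was at 0.672, 0.707 and 1.15 CPM on day 6 and 1.27, 1.71 and 1.53 CPM on day 14 (log2 fold change 0.82, adjusted p = 0.0867). Its ranges did not overlap, and it was called without the day 6 libraries numbered 3 (1.11, adjusted p = 0.0395). The ranges of Bmi1 did not overlap either, at 78.4 to 82.1 CPM on day 6 and 45.3 to 74.2 CPM on day 14 (log2 fold change -0.33, SE 0.19, edgeR adjusted p = 0.166). Nor did those of Nebl (log2 fold change -1.20, adjusted p = 0.115) and Msrb2 (-0.32, adjusted p = 0.171). How many of all genes lack overlap between the days was not computed.

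Few other genes of the region had enough counts to be tested. Within 1 Mb of the 10 genes, 62 genes are annotated, 33 are in the table and 23 of those are others. Only 2 of the 23 had enough counts to be tested, A930004D18Rik and 4930426L09Rik, and neither was called within a day. A930004D18Rik, which precedes Skida1, was lower on day 14 than on day 6 in control cells (log2 fold change -1.59, SE 0.45, adjusted p = 0.00896). Spag6, a sperm flagellum gene that follows Bmi1 directly, totalled 3 reads in control, 9 in BN1 and 12 in AFFN1 on day 6, against 0, 0 and 1 in the same order on day 14. These genes were singled out after their values were seen.

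Correlations between neighbours spread to both sides of 0. After removing the mean of each day, the log2 levels of the 9 adjacent pairs had Pearson correlations from -0.472 to 0.565 over the 18 libraries (median 0.0924), and the other 36 pairs from -0.597 to 0.650 (median -0.0259). These points share the pairing of day 14 and are a description. Bmi1 correlated at 0.565 with Pip4k2a and 0.534 with Mllt10 but at -0.0869 with Commd3, its nearest neighbour. Among 9580 genes with a mean of at least 5 CPM, those of the region included, Pip4k2a ranked 585 and Mllt10 722 by this correlation. Of 9574 genes with a mean of at least 5 CPM, those most like Bmi1 were Kynu (0.917), Adi1 (0.898), Kif13a (0.894), Uap1l1 (0.869) and Tmem164 (0.868). Kynu encodes kynureninase, an enzyme of tryptophan breakdown, and Kif13a a kinesin motor. Kynu was picked for its likeness to Bmi1 in these libraries, so a shared order of the groups is part of that choice. On day 6 it was at mean levels of 132, 71.7 and 55.1 CPM in BN1, control and AFFN1. Between days in control the 2 genes went opposite ways, Kynu from 71.7 to 199 CPM and Bmi1 from 79.6 to 63.3 CPM.

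Genes that work with these 10 were taken from lists of their complexes and pathways, and pairs of values in brackets are a log2 fold change and its edgeR adjusted p. Of the 19 tested PRC1 genes on day 6, 4 were higher and 2 lower in BN1 than in control, where 17.4% of all tested genes were called, with a median log2 fold change of 0.02 against -0.02 over all genes. Pcgf2, a paralog that takes the place of Bmi1 in the complex, rose from 11.2 ± 0.646 to 17.0 ± 0.988 CPM (SD, n = 3), with a log2 fold change of 0.59 and an edgeR adjusted p = 0.00994. Pcgf5, a ring finger subunit of another PRC1 form, fell from 69.3 ± 6.90 to 38.2 ± 3.41 CPM (-0.87, adjusted p = 0.000227). Cbx7, a chromodomain subunit, rose (0.45, 0.0309). In AFFN1, 2 of the 19 were higher and 1 lower than in control, where 12.7% of all tested genes were called. The 2 that rose were Cbx6 (0.50, 0.00394) and Cbx7 (0.49, 0.0244). Between the fusions, Pcgf2 was higher in BN1 (0.92, 0.00115), as Bmi1 was, and Pcgf5 lower (-0.65, 0.00184). The calls of Pcgf2 and Pcgf5 held in all 13 alternatives. Those of Cbx7 did not hold in 8 of 13 for BN1, among them each BN1 library left out (adjusted p 0.0606 to 0.098) and control 1 left out (0.0704), and in 6 of 13 for AFFN1, among them control 1 (0.0582), AFFN1 1 (0.0535), AFFN1 2 (0.0995) or AFFN1 3 (0.0545) left out. On day 14 none of the 19 was called between any groups, either without the block, where at most 0.0429% of all genes were called, or with it, where 11.6% were for BN1 against control.

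Of 5 genes known to be held down by Bmi1, 4 were tested on day 6. In BN1, 2 fell and 1 rose, with 17.4% of all tested genes called, and the median log2 fold change was -0.29 against -0.02 over all genes. Cdkn2a, the cell cycle inhibitor locus held down by PRC1, fell from 47.3 ± 6.32 to 25.0 ± 4.52 CPM (SD, n = 3), a log2 fold change of -0.93 (SE 0.15) with an edgeR adjusted p = 0.00236. Cdkn1a, the cell cycle inhibitor p21, fell from 256 ± 7.20 to 133 ± 9.68 CPM (-0.96, adjusted p = 4.53e-05), and Pax5, a B-lineage factor, rose (0.50, 0.00703). In AFFN1, Cdkn1a fell (-0.37, 0.016) and Pax5 rose (0.37, 0.0363), and both calls were lost without control 1, AFFN1 1 or AFFN1 2 (adjusted p of Cdkn1a 0.0665, 0.0807 and 0.0927, of Pax5 0.0624, 0.144 and 0.121), that of Pax5 also without control 2 (0.0696). Cdkn1a was lower in BN1 than in AFFN1 (-0.59, 0.00125). In the fit of all 18 libraries its BN1 calls were lost against control (adjusted p = 0.072) and against AFFN1 (0.361), and those of Cdkn2a and Pax5 in BN1 held in all 13 alternatives. On day 14 none of the 5 was called without the block (Cdkn2a at 23.2 ± 8.04 CPM in control and 8.88 ± 2.46 CPM in BN1, SD, n = 3, edgeR adjusted p = 0.109, and Cdkn1a with an adjusted p = 0.392). With it, a fit of this list added after seeing the data, Cdkn2a (-1.39, 0.00953) and Cdkn1a (-0.73, 0.0488) fell in BN1, where 11.6% of all genes were called, and were not tested so with a number left out. Bmi1 was not called against control in any of these fits.

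Partners of the other genes changed in few cases within a day. Of 7 partners of DOT1L and Mllt10, none was called between groups of day 6, where 11.2 to 17.4% of all genes were called, or of day 14, with or without the block, with medians of 0.09 for BN1 and -0.02 for AFFN1 against control on day 6. Of 15 Commander genes, 1 was called in each day 6 comparison: Commd4 fell in BN1 (-0.34, 0.0206) and in AFFN1 (-0.77, 0.000348) and was higher in BN1 than in AFFN1 (0.43, 0.00901). The BN1 call was lost without control 2 (0.0637), BN1 1 (0.0828) or BN1 2 (0.0532), and that between the fusions without AFFN1 1 (0.0508). Of 9 J-domain proteins and chaperones of the endoplasmic reticulum, none was called between groups of day 6 or, with or without the block, of day 14. Of 10 phosphoinositide enzymes, Pip5k1b rose in BN1 on day 6 (1.49, 0.029; lost without control 1, control 2, BN1 1 or BN1 3, adjusted p 0.0799 to 0.109), and Pip4p2 (-0.77, 0.00773) and Pip5k1c (-0.37, 0.0375) fell in AFFN1. Pip5k1c was lost without control 1, control 3, AFFN1 1 or AFFN1 2 (0.0765 to 0.178). Of 3 methionine sulfoxide reductases beside Msrb2, Msrb1 (1.20, 0.000393) and Msrb3 (1.34, 0.00483) rose in BN1 and Msrb1 (1.00, 0.00189) in AFFN1 on day 6, calls that held in all 13 alternatives. The change of the BN1 effect between days was called for Msrb1 (lower on day 14), where 2.97% of all genes were called. That call was lost in 10 of 18 alternatives. The change of the AFFN1 effect was called for Commd4 (log2 difference 0.73, higher on day 14), where 1.46% of all genes were called. It too was lost in 10 of 18 alternatives. Lasp1, the only relative of Nebl with enough counts, was lower in BN1 than in AFFN1 (-0.44, 0.0113), a call lost without AFFN1 1 (0.0509) or AFFN1 2 (0.0553). Between days in control, 43.9% of all tested genes were called. On day 14, 7 of 19 PRC1 genes were higher and 2 lower. The counts were 2 and 1 of 5 genes held down by Bmi1, 4 and 1 of 7 DOT1L partners, and 2 and 2 of 15 Commander genes. They were 1 and 5 of 9 endoplasmic reticulum genes, 5 and 0 of 10 phosphoinositide enzymes, and 2 and 1 of 3 reductases.

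**Figure D5:**
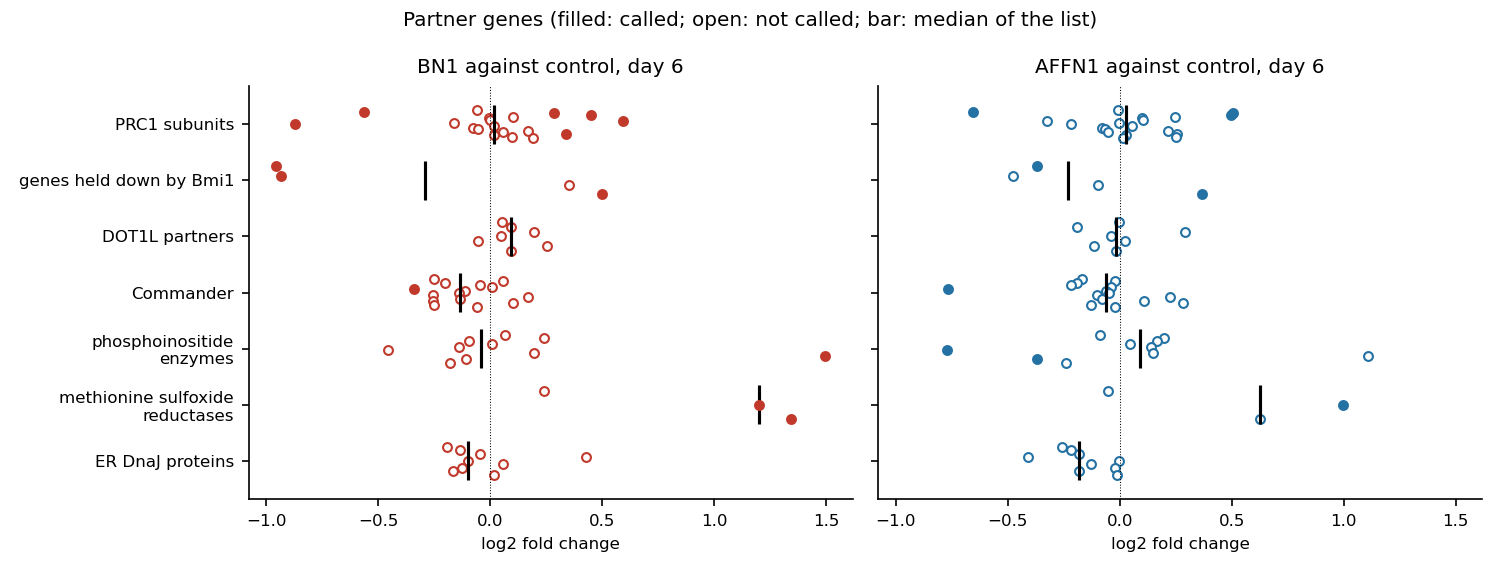
Log2 fold change of BN1 (left, red) and AFFN1 (right, blue) against control on day 6 for the tested genes of 7 lists of partners. Points are genes, filled where called at an adjusted p under 0.05, and black bars are list medians. The 3 methionine sulfoxide reductases have the highest medians (1.20 and 0.63), and called PRC1 genes lie on both sides of 0.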

How the data were processed

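Poly(A) RNA was sequenced in 18 libraries, 3 in each of 6 groups. The authors deposited expected counts per gene, of which 1.74 to 2.12% in a library were not whole numbers. STAR, RSEM, DESeq2 and mm10 are named per the submitters' processing notes, and their versions, the gene annotation and the counting strand are not given in the sources. The expected counts were rounded and tested in R 4.3.3 with edgeR 4.0.16 (filterByExpr, TMM, robust quasi-likelihood test, 2-sided p-values adjusted by Benjamini-Hochberg over all genes tested, called under 0.05). Within-day comparisons used the 9 libraries of a day, and comparisons across days all 18. The 9 comparisons share controls. Group means are CPM with TMM over all 18 libraries. The scripts were tested on simulated data.

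Alternatives were DESeq2 1.42.0, RLE scaling, no low-count filter, other sets of libraries in the fit, a replicate block and leaving out libraries. On day 14 deviations correlated at 0.306 to 0.685 between libraries of the same number and at -0.553 to 0.0395 between others, and the labels give same-numbered libraries a shared code, so they were taken as pairs. On day 6 the ranges were -0.409 to 0.378 and -0.421 to 0.503, and the numbers were not taken as pairs.

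The genes, lists and tests were chosen with earlier results of these data known. All 10 genes were described. Of each partner list, up to 4 called genes with the smallest adjusted p were named per comparison within a day or of effects between days. Calls of partners between days in control are given as counts. The 5 genes most like Bmi1 were named by Pearson correlation of log2(CPM + 1) after subtracting day means. The annotation was found for 32235 gene identifiers (99.8%). Lasp2 was not matched by name, and a match by synonym to any of the 10 genes was not accepted. The values of 1 partner gene are not reported here.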

Additional observations from a re-analysis of the deposited data

Results flagged for a closer look

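Nebl was marked because the test of the difference in the BN1 effect between the 2 days passed. The effect had opposite signs on these days. The difference of the log2 fold changes, day 14 minus day 6, came from the fit of all 18 libraries. It was 4.03 (SE 0.87, edgeR adjusted p = 0.0144). The fits of each day gave -2.14 on day 6 (adjusted p = 0.00442) and 1.88 on day 14, which did not pass (adjusted p = 0.186). The call of the difference was lost without the day 6 libraries numbered 3 (adjusted p = 0.150). All 3 BN1 libraries were below all 3 controls on day 6 and above them on day 14. The difference rests on 5 to 66 reads per BN1 or control library. Day and experiment cannot be told apart.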

How the results depend on the processing

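Depth limits Nebl, Skida1 and Armc3 most, which had as few as 5, 21 and 10 reads in a library. The number of all genes called on day 14 depended on the processing far more than on day 6. For BN1 against control, AFFN1 against control and BN1 against AFFN1 on day 14 it was 3, 5 and 0, against 642, 83 and 90 with DESeq2, 1348, 65 and 21 with the replicate block, 691, 51 and 76 in the fit of all 18 libraries, 17, 25 and 5 with no filter on low counts, and 25, 1 and 2 in fits of the 2 groups alone. RLE scaling gave 5 for the first, and leaving out the day 14 libraries numbered 1 gave 18 and 11 for the first and second. On day 6 the fit of all 18 libraries called 1032, 676 and 624 genes, and leaving out the libraries numbered 3 called 3890 for BN1 and 3873 for AFFN1 against control. For the change of the BN1 and AFFN1 effects between days, DESeq2 called 599 and 338 genes, the replicate block 649 and 319, and the fit without the day 6 libraries numbered 3 called 202 and 104.

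Leaving out 1 library in turn, the calls over all genes ranged from 1141 to 3495 (BN1), 739 to 2250 (AFFN1) and 725 to 1047 (BN1 against AFFN1) on day 6, from 1 to 5, 0 to 9 and 0 to 0 on day 14, from 4749 to 5277 between days in control, and from 267 to 381 (BN1) and 110 to 214 (AFFN1) for the change of effect. Of the 10 genes, 1 to 4 were called for BN1 against control and 1 to 2 for BN1 against AFFN1 on day 6, 1 in every case for the change of the BN1 effect, and 0 in the others.

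Among other settings, the number called of the 10 was 2 for BN1 against control on day 6 in a fit of the 2 groups alone, 0 for BN1 against AFFN1 on day 6 in the fit of all 18, and 1 for AFFN1 against control on day 6 with DESeq2 (Pip4k2a) or without the libraries numbered 3 (Otud1). It was 2 for BN1 on day 14 with the replicate block, 1 between days in control (Armc3) and 0 for the change of the BN1 effect without the day 6 libraries numbered 3. On day 6, where numbers do not pair the libraries, the replicate block lost the call of Mllt10 in BN1 (adjusted p = 0.0624), and it changed no other call of the 10 there.

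Signs turned for differences that had not passed. Without 1 library the log2 fold change of Bmi1 ranged from -0.0093 to 0.33 (BN1), -0.080 to 0.28 (AFFN1) and -0.10 to 0.23 (BN1 against AFFN1) on day 14 and from -0.22 to 0.13 for the change of the BN1 effect, which was 0.041 without the day 6 libraries numbered 3. That of Nebl ranged from -0.14 to 0.44 for AFFN1 on day 6 and from -0.25 to 1.07 for BN1 against AFFN1 on day 14, which was -0.23 without the libraries numbered 1. That of Otud1 for AFFN1 on day 6 ranged from -0.22 to 0.42 and was 0.088 with the replicate block and 0.49 without the libraries numbered 3. The causes were not tested.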
